A study of Drosophila melanogaster with 15 samples.

Results

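The regulators described here take the Drosophila egg out of meiosis and then repress and destroy the RNA that the mother loaded into it. The list named 10 genes: smg, brat, cup, me31B, tral, png, plu, gnu, mtrm and cort. A gene was followed where the array had a probe set annotated with its symbol and no other, which gave 8 probe sets of 18952, 1 for each of 8 genes, out of 11981 genes that had such a probe set. cup was annotated only on a probe set that also names CG34310, and tral had no probe set under its symbol, so both were not analysed here. All 8 probe sets passed the filter on low values, which left 11261 probe sets for testing.

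Gene expression was measured in w[1118] embryos, a white-eyed laboratory stock that all groups shared. The 12 irradiated samples had received 500 µGy of gamma rays at 22.4 mGy/h 5, 30, 60 or 90 min before freezing, and the 3 control samples had received 0 µGy. All embryos were labelled 3-4 hours old and each sample pooled the eggs of several bottles. Each of the 5 groups held 3 biological replicates, lettered A, B and C, with 1 Affymetrix array each. Embryos of all groups were frozen at the same labelled age, so the time since irradiation and the age at irradiation cannot be told apart. Each p-value below weighs a difference against the spread between these samples. In fits without the letter as a term, that spread includes the differences between letters.

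As background, egg activation in Drosophila is triggered as the egg passes through the oviduct, without fertilization. The PAN GU kinase, made of the catalytic subunit png and the partners plu and gnu, then changes the translation of stored mRNAs and allows Smaug protein, the product of smg, to be made. Smaug recruits the CCR4-NOT deadenylases to maternal mRNAs, brat binds others, and me31B, an RNA helicase, holds mRNAs in repressed particles with cup and tral. mtrm inhibits Polo kinase in the oocyte, and cort is the female-specific activator of the anaphase-promoting complex that marks such meiotic proteins for destruction. These RNAs are made largely in the mother's ovary, so at this age their level reflects what is left of the maternal load together with any made by the embryo. In whole embryos, fewer cells of a type and less RNA per cell cannot be told apart.

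The values are MAS5 intensities, a linear measure of brightness per probe set. The median over all probe sets lay between 29.05 and 43.32 on the 15 arrays, and their number limits the precision. Intensities of different probe sets depend on their probes, so the genes are not ranked by level. Arrays resembled each other by letter: the closest array of another group carried the same letter for 13 of 15 arrays. The exceptions were control B, closest to 60 min A, and 90 min B, closest to 60 min C. 90 min B stood apart further, since its deviations from the group mean correlated at -0.30 with those of control B. The hybridization spike-in controls were brighter on all C arrays and on 60 and 90 min B (11.36 to 11.74 on the log2 scale) than on the other 8 arrays (10.72 to 11.09). The log2 ratio of the 3′ to the 5′ actin probe sets, a sign of RNA quality, was 0.05 on 90 min B and -0.17 to 0.51 over all arrays. For GAPDH it was 1.20 on 90 min B, the highest of the 15 arrays, and 0.54 on the lowest. Results are therefore also given without 90 min B or within letters and within the spike-in sets where it matters.

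None of the 8 regulators passed the test between irradiated and control arrays, and neither did any other probe set. In limma's fit across all 11261 probe sets, 0 (0%) had a Benjamini-Hochberg adjusted p under 0.05 for the mean of the 4 irradiated groups, for any single time, for the slope over the times or for any difference among the 5 groups. The unadjusted p was under 0.05 for 3.59% of probe sets in the irradiated mean, 2.63% at 5 min, 1.47% at 30 min, 2.47% at 60 min and 1.6% at 90 min. Among the regulators, mtrm was under it in the irradiated mean and at 5, 30 and 60 min. The estimate for the irradiated mean was below 0 for 7 of the 8 regulators with a median of -0.67 on the log2 scale, against 46.1% of all probe sets with a median of 0.04. What follows gives the values behind these estimates by the genes' roles.

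mtrm, the inhibitor of Polo kinase that holds the oocyte in meiosis, had the estimate farthest below 0. Its intensity was 6731, 1352 and 5863 in controls A, B and C, then 1392, 876.0 and 1127 after 5 min, 2635, 487.1 and 1087 after 30 min, 1456, 835.6 and 1379 after 60 min and finally 2400, 3877 and 1265 after 90 min. Controls A and C were the brightest arrays and 90 min B came next, while control B lay among the irradiated arrays, so the groups overlapped at every time. The 3 controls spanned 4.98-fold among themselves. The irradiated mean lay -1.47 ± 0.53 (SE) from control on the log2 scale (95% interval -2.61 to -0.34, limma, unadjusted p = 0.0144, adjusted p = 0.978). The differences were -1.76, -1.75 and -1.66 at 5, 30 and 60 min and -0.73 at 90 min.

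cort, the meiosis-specific partner of the anaphase-promoting complex, came close to the arrays' median intensity on its lowest arrays. It read 264.1, 51.8 and 307.5 in controls A, B and C, then 43.7, 91.8 and 63.6 after 5 min, 63.2, 109.1 and 81.2 after 30 min, 63.0, 39.5 and 143.7 after 60 min and finally 53.4, 478.6 and 186.2 after 90 min. The highest array was 90 min B, and the order of control and irradiated arrays in letter B was the opposite of that in letters A and C at 5, 30 and 90 min. The irradiated mean differed by -0.85 ± 0.65 (SE, limma, adjusted p = 0.978), and the estimate at 90 min was 0.06. In the RefSeq annotation of Release 6 the cort gene overlaps cup and CG34310, and mtrm overlaps Exo70, and whether the measured signal holds RNA of the overlapping genes was not tested.

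png, the kinase subunit of PAN GU, was lower on every irradiated array than on controls A and C except 90 min B. Its intensity was 573.4, 183.3 and 902.6 in controls A, B and C, then 183.1, 122.1 and 335.8 after 5 min, 289.6, 116.2 and 315.6 after 30 min, 184.2, 142.7 and 369.0 after 60 min and finally 258.5, 860.9 and 354.8 after 90 min. Control B lay among the lowest arrays and 90 min B near control C, the brightest. The irradiated mean differed by -0.86 ± 0.53 (SE, limma, adjusted p = 0.978), with -1.22, -1.05 and -1.09 at 5, 30 and 60 min and -0.09 at 90 min.

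gnu, the regulatory partner that brings the PAN GU kinase to activity, had the widest range of the regulators, 39.4-fold between its lowest and highest array. It read 4587, 1368 and 12074 in controls A, B and C, then 1498, 654.1 and 3291 after 5 min, 3104, 306.2 and 2832 after 30 min, 1380, 833.6 and 3381 after 60 min and finally 2508, 5866 and 3202 after 90 min. Control C was the brightest array, and letter B was the dimmest letter in each group other than 90 min. The irradiated mean differed by -1.19 ± 0.75 (SE, limma, adjusted p = 0.978), with -1.52, -1.60 and -1.43 at 5, 30 and 60 min and -0.23 at 90 min.

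plu, the ankyrin-repeat subunit of the same complex, did not share this pattern. Its intensity was 2931, 3227 and 6065 in controls A, B and C, then 3504, 2657 and 6244 after 5 min, 3414, 1811 and 6131 after 30 min, 3158, 3393 and 5885 after 60 min and finally 3372, 5741 and 5570 after 90 min. All C arrays and 90 min B were high, and in letters A and C the irradiated arrays lay close to their control, while 30 min B was the lowest array. The irradiated mean differed by 0.04 ± 0.37 (SE, limma, adjusted p = 0.997).

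smg, whose protein recruits deadenylases to maternal mRNA, followed the replicate letters. It read 11359, 9417 and 4941 in controls A, B and C, then 7878, 6430 and 2599 after 5 min, 11784, 6522 and 3490 after 30 min, 9429, 5831 and 3262 after 60 min and finally 10650, 3824 and 5157 after 90 min. Letter A was the highest and letter C the lowest in every group but 90 min, where B was the lowest. The irradiated mean differed by -0.49 ± 0.45 (SE, limma, adjusted p = 0.978).

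brat, a translational repressor that also binds maternal mRNAs for decay, varied least, 2.38-fold over the 15 arrays. Its intensity was 1305, 1153 and 1289 in controls A, B and C, then 588, 1342 and 941 after 5 min, 991, 1396 and 911 after 30 min, 937, 1268 and 987 after 60 min and finally 1075, 1081 and 1060 after 90 min. At 90 min all 3 arrays lay below all 3 controls, which held for 0.755% of probe sets at that time, and brat was the regulator for which this held. The difference at 90 min was -0.22 and that of the irradiated mean -0.28 ± 0.25 (SE, limma, adjusted p = 0.978). No regulator had its 3 arrays below the 3 controls at 5, 30 or 60 min, where 2.2%, 0.506% and 1.47% of probe sets did. The brat gene overlaps Polr1D, lncRNA:CR44977 and CG17568 in the same annotation.

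me31B, the DEAD-box helicase of repressed mRNA particles, differed between letters, with group estimates near 0. It read 18944, 18836 and 5172 in controls A, B and C, then 20801, 16272 and 4368 after 5 min, 22466, 15725 and 6172 after 30 min, 19558, 15971 and 6249 after 60 min and finally 19479, 8798 and 10388 after 90 min. The C array was the lowest of each group except at 90 min, where B was. The irradiated mean differed by -0.00 ± 0.55 (SE, limma, adjusted p = 1).

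**Figure D1:**
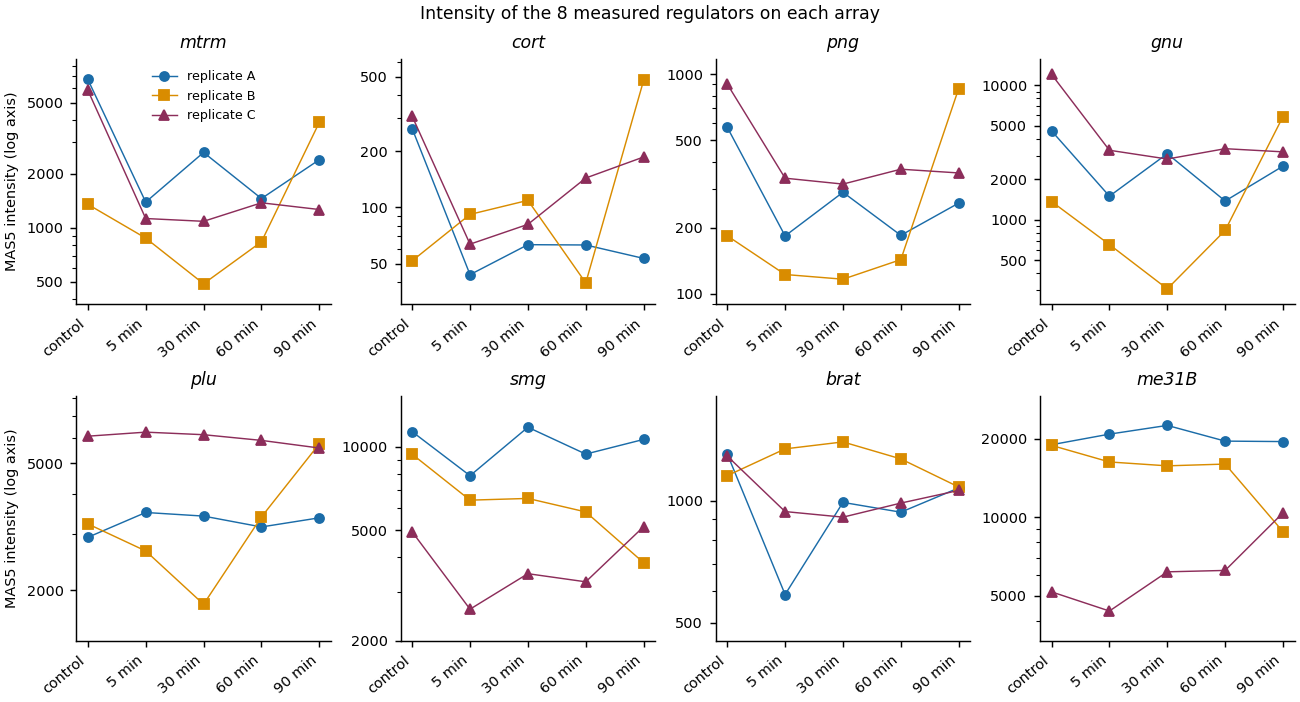
MAS5 intensity (log axis) of each regulator on each of the 15 arrays, by group; points are single arrays, and lines join arrays of 1 replicate letter. mtrm, cort, png and gnu are highest on control A, control C and 90 min B, whereas smg and me31B separate letter C from letter A.

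mtrm, cort, png and gnu thus shared the same 3 brightest arrays: control A, control C and 90 min B. This held for 3.34% of the 11261 probe sets. The other 4 regulators, among them plu of the same kinase as png and gnu, did not have it. The GAPDH 3′ control probe set was also brightest on these arrays, at 6490, 6322 and 8077, against at most 1586 on the other 12. Its part in the pattern was not tested.

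Each irradiated array was next set against the control of its own letter. png, gnu and mtrm were below it on 11 of 12 arrays, the exception being 90 min B for each, and 6.02% of probe sets were below it on at least 11. No regulator was below it on all 12, where 1.89% of probe sets were. smg was below it on 10 arrays, brat and cort on 9, me31B on 5 and plu on 4. In a check over all probe sets the letters paired the control arrays with those of 5, 30 and 60 min and with 90 min A and C. They did not pair control B with 90 min B, so that comparison rests on the label alone. Whether 90 min B is labelled correctly cannot be settled from the labels.

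In mtrm the mean log2 difference of the 4 irradiated arrays from their control was -1.83 in letter A, -0.32 in letter B and -2.28 in letter C. In gnu the values were -1.20, -0.46 and -1.93, and in smg -0.21, -0.77 and -0.49. These 3 regulators were lower in all letters, which held for 12.3% of probe sets. png was at -1.35, 0.16 and -1.39, and cort at -2.24, 1.17 and -1.49, so both changed sign in letter B. For brat the values were -0.58, 0.13 and -0.40, for me31B 0.12, -0.45 and 0.32, and for plu 0.20, -0.05 and -0.03.

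On 90 min B alone the difference from control B was 1.52 for mtrm, 3.18 for cort, 2.23 for png, 2.10 for gnu and 0.83 for plu, against -1.30 for smg and -1.10 for me31B. The regulators thus lay to either side of control B on that array. Within the spike-in sets, the differences of irradiated from control arrays were -1.18 in the lower and -2.09 in the higher set for mtrm, -1.04 and -2.10 for gnu, and -0.83 and -1.38 for png. The lower set held 6 irradiated and 2 control arrays and the higher set 6 and 1, so these are values without a test.

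**Figure D2:**
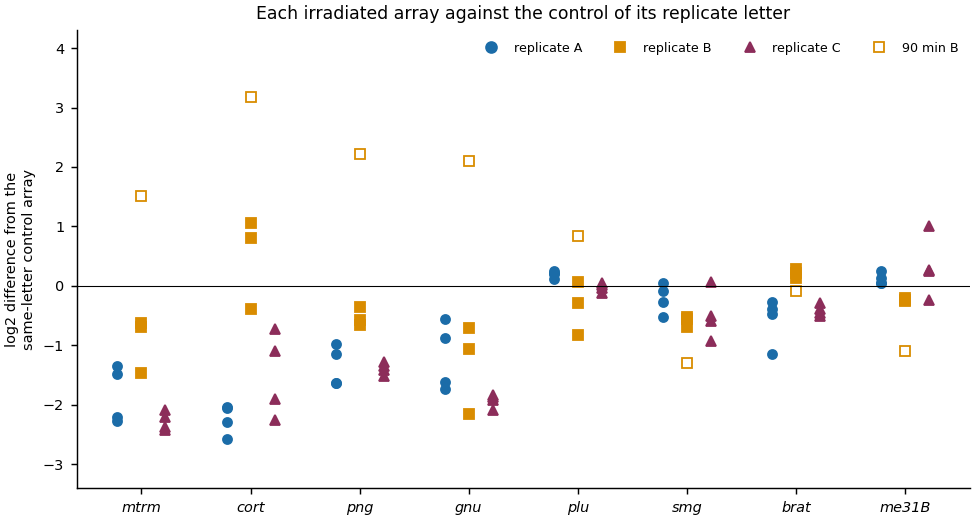
Log2 difference of each of the 12 irradiated arrays from the control array of its letter, per regulator; the open square is 90 min B. For mtrm, png and gnu all arrays but 90 min B lie below 0.

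With the letter as a block in limma's fit, 0 of 11261 probe sets (0%) passed for the irradiated mean, and 14.4% had an unadjusted p under 0.05. The estimates stayed as above while the errors became smaller: mtrm had an adjusted p of 0.165 (unadjusted p = 0.00457) and gnu one of 0.328 (unadjusted p = 0.041). With 90 min B left out as well, a setting chosen after the data were seen, 353 probe sets passed (3.13%), of which 164 were lower (1.46%), and 21.6% had an unadjusted p under 0.05. mtrm (-1.68 ± 0.27 SE, adjusted p = 0.0245), gnu (-1.47 ± 0.30, adjusted p = 0.0312) and png (-1.10 ± 0.24, adjusted p = 0.0354) were then among those that fell. cort (-1.09, adjusted p = 0.241) and smg (-0.39, adjusted p = 0.0911) were not. These calls depend on leaving out that array, whose label could not be checked: with the block and each other array left out in turn, no regulator passed, and without control C mtrm was at -1.07 (adjusted p = 0.832). Without the block, leaving out 90 min B gave 0 calls over all probe sets and -1.57 for mtrm.

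**Figure D3:**
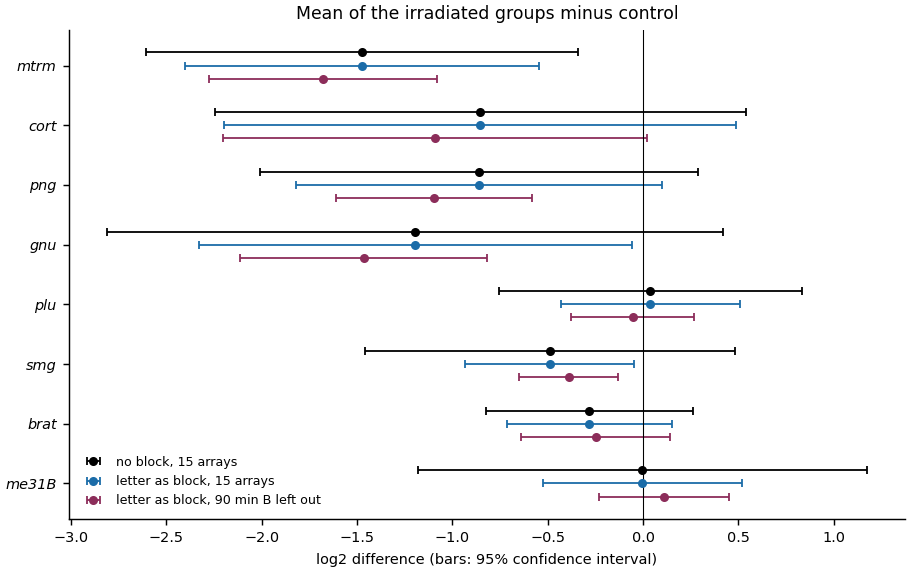
Mean of the 4 irradiated groups minus control for each regulator in 3 limma fits, as log2 differences with 95% confidence intervals. The intervals narrow with the letter as a block and again without 90 min B. That of mtrm lies below 0 in all 3 fits and that of gnu in both fits with the block. Without 90 min B those of png and smg lie below 0 too.

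The slope over 5 to 90 min was above 0 for all 8 regulators, with a median of 0.47 per hour on the log2 scale against 0.00 over all probe sets, and none of them had an unadjusted p under 0.05. It was 0.87 ± 0.63 (SE) for gnu, 0.84 ± 0.54 for cort, 0.71 ± 0.45 for png and 0.68 ± 0.44 for mtrm. 90 min B, the array on which these 4 genes were high, lies at the end of the slope.

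Some regulators differed between replicate letters. In a fit with group and letter, smg and me31B fell from letter A to letter C and plu rose, while brat, png, gnu, mtrm and cort did not pass. me31B was at -1.71 ± 0.24 (SE, limma, adjusted p = 0.000235), smg at -1.43 ± 0.20 (adjusted p = 0.000249) and plu at 0.87 ± 0.21 (adjusted p = 0.00506). Such calls were common: 45.6% of probe sets passed between these letters, 24.8% lower and 20.8% higher in C. me31B and smg had all 5 C arrays below all 5 A arrays, as did 21.4% of probe sets, and plu had all 5 above, as did 17.4%.

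The spike-in level moved with this difference, since all C arrays and no A array were in the brighter set. With that set as a block 0 probe sets (0%) passed between C and A in limma's fit, and 1144 had an unadjusted p under 0.05. The estimates were then -0.92 for me31B (adjusted p = 0.465), -0.70 for smg (adjusted p = 0.492) and -0.0065 for plu (adjusted p = 0.997). That fit separates letter from spike-in level through letter B alone, the letter with arrays in both sets.

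From letter A to letter B, smg fell by 0.72 on the log2 scale (SE 0.20, limma, adjusted p = 0.0337), while 14.7% of probe sets passed and 7.26% were lower. That call was lost with the spike-in set as a block (-0.43, adjusted p = 0.197) and on leaving out any of 7 single arrays: 5, 30, 60 or 90 min A, 30 or 60 min B, or 60 min C (adjusted p of 0.0511 to 0.106). mtrm (-1.10, adjusted p = 0.0927) and gnu (-1.16, adjusted p = 0.144) did not pass in that fit.

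Both passed from A to B with the spike-in set as a block, gnu at -2.09 (adjusted p = 0.015) and mtrm at -1.79 (adjusted p = 0.0183), where 8.36% of probe sets passed. Without 90 min B, 18.4% of probe sets passed from A to B, among them gnu (-1.81, adjusted p = 0.00415), mtrm (-1.60, adjusted p = 0.00485) and png (-0.99, adjusted p = 0.0177). From A to C 50.1% then passed, among them gnu (0.81, adjusted p = 0.0331) and png (0.62, adjusted p = 0.0375). With the spike-in set as a block, gnu and png turned sign from A to C, to -1.52 and -1.15 (adjusted p = 0.501 and adjusted p = 0.588).

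**Figure D4:**
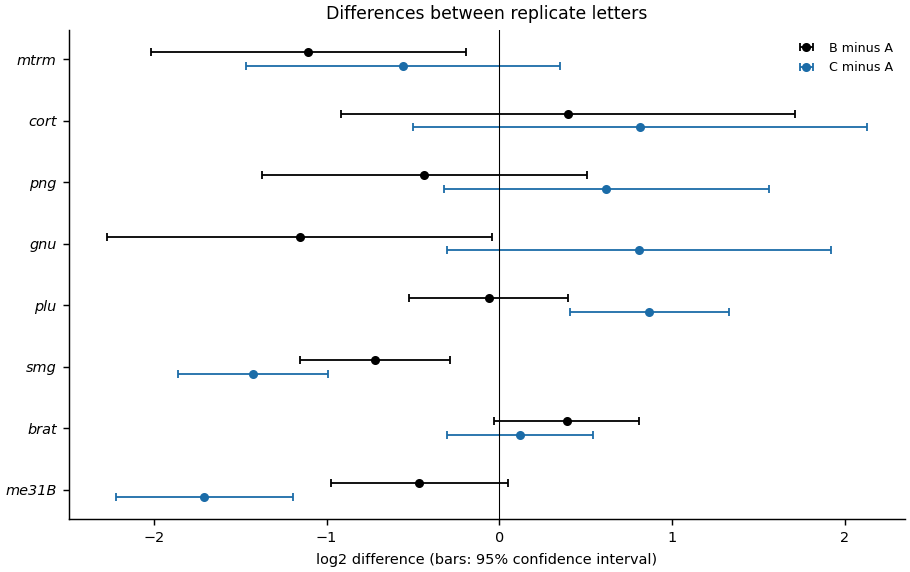
Log2 difference of letters B and C from letter A for each regulator in limma's fit with group and letter, with 95% confidence intervals. smg and me31B lie below 0 and plu above 0 in letter C.

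Across the 15 arrays the regulators fell into patterns that followed the letters and the 3 bright arrays. png and gnu had a Pearson r of 0.95 (Spearman's rho 0.98), png and mtrm 0.83, gnu and mtrm 0.83, and png and cort 0.78. After removing letter means, r was 0.95 for each pair among png, gnu and mtrm. plu correlated at 0.77 with gnu and 0.70 with png. smg and me31B had r = 0.91, or 0.73 without letter means, and plu ran against both, at -0.72 and -0.82. brat had a Pearson r of 0.37 or less in size with every other regulator. Without letter means it reached 0.52 with smg, and its Spearman's rho with plu was -0.575. These r values describe arrays that share letter differences and hybridizations, and carry no test.

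**Figure D5:**
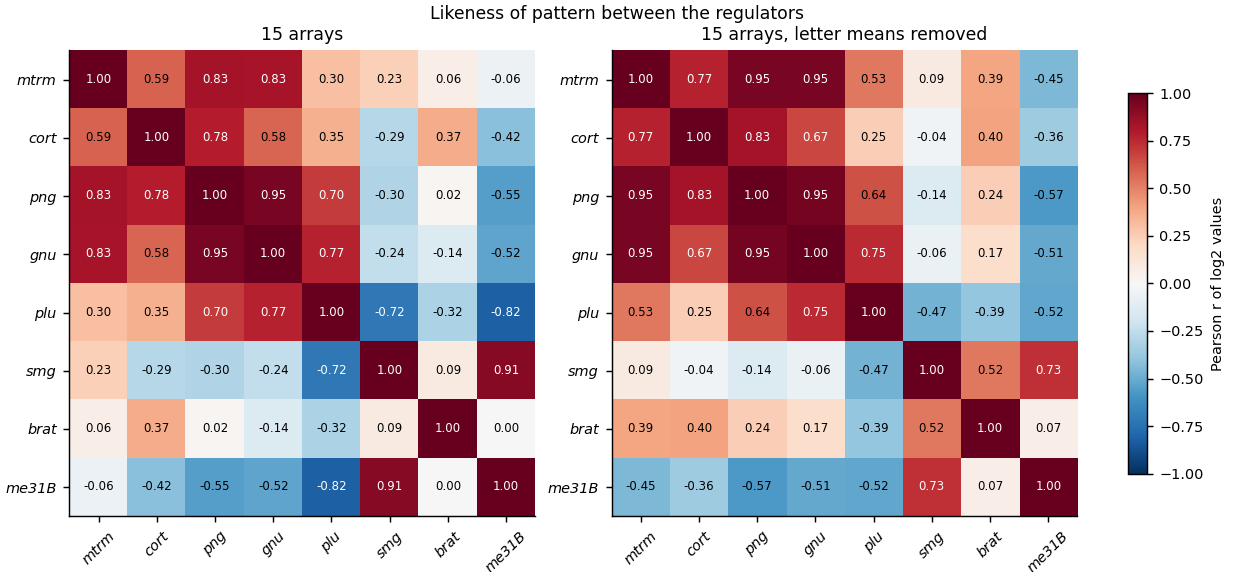
Pearson r of log2 values between regulators over 15 arrays, as measured (left) and after removing each letter's mean (right). mtrm, png and gnu form 1 block on either side, and smg pairs with me31B.

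Among the other 8634 genes, each represented by 1 probe set, the 3 most alike over the 15 arrays were listed for each regulator. For mtrm they were BicC (r = 0.98), an RNA-binding translational repressor of the ovary, yin (0.97) and exu (0.97), which localizes bicoid mRNA. For png they were nanos (0.98), the posterior determinant, CG17544 (0.98) and CG17292 (0.98), for gnu CG9391, Ggt-1 and Mtpbeta (0.99 each), and for cort Ets97D (0.95), CG7745 (0.92) and CG11655 (0.92). For plu they were Bdbt, CG6583 and CG14903 (0.99 each), for smg VhaAC39-1, Mnt and Nipsnap (0.98 to 0.99), for me31B CG8578 (0.99), Ephrin (0.99) and CG17486 (0.98), and for brat tank (0.91), lds (0.86) and Ndc80 (0.85).

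Genes that work with the regulators were read from lists chosen by function. No gene of any list passed for the irradiated mean, so the counts give the sign of estimates, and 46.9% of the 8635 genes tested were below 0 with a median of 0.03. Of the 15 measured genes of deadenylation and decapping 13 were below 0 (median -0.18), among them the CCR4 deadenylase twin (-0.81 ± 0.39 SE) and the CAF1 deadenylase Pop2 (-0.25 ± 0.42). Of 11 repression partners 9 were below 0 (median -0.84), including eIF4E1 (-1.07 ± 0.84), the cap-binding protein, and pum (-0.31 ± 0.34), which binds mRNA with nanos.

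Of the 22 measured genes of egg activation and meiosis 19 were below 0 (median -0.39). The cytoplasmic poly(A) polymerase wisp was at -1.21 ± 0.98 (SE), the calcineurin regulator sra at -0.36 ± 0.29 and the meiotic Cdc25 phosphatase twe at -0.64 ± 0.62, while fzy, another activator of the anaphase-promoting complex, was at 0.21 ± 0.21. The ubiquitin ligases that act on the repressors were mixed, with 2 of 6 below 0. Of these, muskelin was at -0.97 ± 0.58 and RanBPM, its partner in the CTLH ligase, at 0.30 ± 0.41.

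All 6 measured maternal mRNAs known to be cleared were below 0 (median -1.11). alphaTub67C, the maternal alpha-tubulin, was at -1.79 ± 0.76 (SE), nanos at -1.04 ± 0.68 and bcd, the anterior determinant, at -0.38 ± 0.31. nanos read 5752, 1469 and 12602 in controls A, B and C and 8646 on 90 min B, and alphaTub67C 3482, 343.0 and 3176 and then 3546. Control A, control C and 90 min B were thus above control B in both, as in mtrm, png, gnu and cort. The cleared mRNAs did not all share this. exu did, at 2314, 138.7 and 1228 in controls A, B and C and 1069 on 90 min B. twe did not, at 1170, 1150 and 418.1 in controls A, B and C and 220.4 on 90 min B. Not1, bru1, polo, Hsp83 and stg were not analysed here.

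Between letters C and A, 24.8% of all probe sets were called lower and 20.8% higher, and none with the spike-in set as a block, so the calls in these lists are lost with it. Without that block, 11 of the 15 deadenylation and decapping genes fell and 3 rose, with twin at -1.11 ± 0.17 (SE, limma, adjusted p = 0.000335) and Pop2 at -1.20 ± 0.23 (adjusted p = 0.00126). Of the repression partners 5 fell and 1 rose, of the egg activation genes 12 fell and 1 rose, and of the cleared mRNAs 3 fell. eIF4E1 (-2.76 ± 0.34), wisp (-3.15 ± 0.42), muskelin (-1.84 ± 0.25) and twe (-1.79 ± 0.32) were among those that fell, and fzy (0.59 ± 0.10) was the activation gene that rose.

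Lists of markers of other cells and stages were read beside these values. All 9 measured pole cell markers, genes of the germline precursors, were below 0 in the irradiated mean (0 called), and their summed intensity ranged from 10628 to 24980 in controls, 6309 to 10929 at 5 min, 5684 to 18989 at 30 min, 6249 to 13024 at 60 min and 9110 to 17244 at 90 min. It was 24980, 10628 and 22102 in controls A, B and C and 14957 on 90 min B. The arrays bright in mtrm were thus above control B in this sum. For control C and 90 min B that rested largely on nanos, 1 of the 9 markers. It read 12602 on control C and 8646 on 90 min B, against 1469 on control B. The rest of the sum was lower on 90 min B than on control B, and similar on controls B and C. All irradiated A arrays were also above control B in the full sum, at 10929, 18989, 13024 and 17244 at 5, 30, 60 and 90 min. Of these, 30 min A and 90 min A were higher than 90 min B. nanos and osk belong both to this list and to the cleared mRNAs, and nanos also to the repression partners. exu is shared by the repression partners and cleared mRNAs and twe by the egg activation genes and cleared mRNAs, so the list counts overlap.

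The summed intensity of 6 zygotic genes of cellularization was 30279 to 48704 in controls and 16945 to 54338 in irradiated arrays. All 5 measured late embryo markers and all 6 hemocyte markers past the filter were above 0 in the irradiated mean (0 called, medians 0.71 and 0.74), opposite in sign to the estimates of mtrm, gnu, png and cort. Of these markers, nSyb and NimC1 were dim, with median intensities of 13.8 and 20.5, below the lowest array median of 29.05. The other tested markers of both lists had medians of 61.4 or more. The earlier stages were mixed, with 4 of 6 cellularization genes below 0 (median -0.27) and 3 of 9 gastrulation-stage genes (median 0.19). The late embryo sum was 526.0 to 3217 in controls, 1439 to 4525 at 5 min, 1084 to 5927 at 30 min, 2041 to 2686 at 60 min and 1247 to 2608 at 90 min, so the groups overlapped. Between letters C and A all 9 gastrulation-stage genes were below 0, and 8 of them passed, where 24.8% of all probe sets were called lower. Of 13 eggshell genes of follicle cells 7 passed the filter, and the sums over all 13 were 170.4 to 689.7. Of 6 testis genes 3 passed. The part of these cells and stages in the results was not tested.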

How the data were processed

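The authors deposited a table of MAS5 intensity values, per the submitters' processing notes; the version and scaling are not given in the sources used here. Each array had a mean of 500.01 to 500.02 once 2% of its values were trimmed from both ends, and this scaling was kept. Probe sets were named from GEO's platform annotation, which gives a single gene symbol to 13646 probe sets, several to 402 and no symbol to 4904; 13543 were found in the RefSeq table of Release 6, whose coordinates are not printed because the files name no build.

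Values were taken as log2(intensity + 1), which understates changes of dim genes. The test used probe sets whose mean log2 value reached the 40th percentile and left out 183 controls. R 4.3.3 with limma 3.58.1 (lmFit and trended eBayes, two-sided, Benjamini-Hochberg, threshold 0.05) was fitted to all 15 arrays with the groups as terms, and for letters with group and letter. The script was tested on simulated data. The regulators and lists were chosen with earlier results of these data known. Named were all regulators, a fixed set of pathway genes and the 3 genes most alike to each regulator.

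Deviations of same-letter arrays correlated with control at 0.217 to 0.665 at 5, 30 and 60 min, so the letters, which the labels call biological replicates, pair these groups here. The 90 min correlations were 0.501 in A, -0.299 in B and 0.311 in C, so A and C lay in that range and 90 min B did not pair. Alternatives were a pseudocount of 16, no filter, quantile normalization, the letter as a fixed or random block, the spike-in level as a block, and each array left out.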

Additional observations from a re-analysis of the deposited data

How the results depend on the processing

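The replicate block, fixed or random, changed no call of a regulator between irradiated and control arrays, and 0 probe sets passed in each irradiation comparison under the other pseudocount, filter, normalization and block settings and with each array left out (0 to 0). With the block and 1 array left out, settings added after the data were seen, 353 passed for the irradiated mean without 90 min B, 113 without control A and 26 without 30 min A, and 4 passed at 60 min without 90 min B. The cause was not tested. With the spike-in set as a block, 941 probe sets passed between letters B and A and 0 between C and A. Leaving out 1 array gave 498 to 2294 for B and 4172 to 5639 for C; the lowest counts for B were 972 without 5 min A, 988 without 5 min B, 685 without 30 min A, 529 without 60 min A, 611 without 60 min B and 498 without 90 min A. The spread of 3 arrays a group limits what these tests could find.

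Signs turned mostly in regulators near 0. Under quantile normalization me31B was -0.062 at 30 min and -0.16 at 60 min, plu -0.057 at 5 min, -0.022 at 60 min and -0.017 in the irradiated mean, and png 0.076 at 90 min. With the spike-in block cort was -0.21 at 90 min, me31B 0.49 at 90 min and 0.25 in the mean, and plu -0.26 at 60 min, -0.000675 at 90 min and -0.11 in the mean. From letter A to C that block gave -0.036 for cort, -1.52 for gnu, -1.15 for png and -0.0065 for plu. With the block and 90 min B left out, cort was -0.88, me31B 0.43 and plu -0.072 at 90 min, and me31B 0.11 and plu -0.055 in the mean. With the block and another array left out, me31B in the mean was 0.22 without control B, 0.058 without 5 min C, 0.0093 without 30 min C, 0.0080 without 60 min A and 0.0019 without 90 min A. plu was -0.040 without control A, -0.0069 without 30 min A and -0.0029 without 30 min C.

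Leaving out 1 array, brat ranged from -0.051 to 0.21 between letters C and A, cort from -0.75 to 0.88 at 90 min and from -0.17 to 1.004 between letters B and A, gnu from -1.04 to 0.53 and png from -0.74 to 0.40 at 90 min, and smg from -0.76 to 0.12 at 30 min. me31B ranged from -0.73 to 0.58, -0.54 to 0.62, -0.60 to 0.53 and -0.64 to 0.30 at 5, 30, 60 and 90 min, and from -0.63 to 0.31 in the mean. plu ranged from -0.34 to 0.33, -0.63 to 0.25 and -0.24 to 0.37 at 5, 30 and 60 min, from -0.16 to 0.37 in the mean and from -0.29 to 0.15 between letters B and A. The cause of these turns was not tested. mtrm stayed below 0 in each of the 37 fits of its irradiated mean, the main fit included (-2.21 to -1.06). Each regulator had 1 probe set, so the comparison with a gene's other probe sets was not run.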
